A study of Arabidopsis thaliana with 10 samples.

Results

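The question was whether far-red light given before white light changed the same transcripts by the same amount in the gun1gun5 double mutant of Arabidopsis thaliana as in wild type (WT). The quantity measured was an interaction, the gun1gun5 response (gun1gun5_FR minus gun1gun5_D) minus the WT response (WT_FR minus WT_D), each a difference of log2(value + 16). It used 8 of the 10 arrays of the series, 2 in each of 4 groups, and 22746 of the 22810 probe sets of the Affymetrix ATH1 array, leaving out the 64 controls. Each probe set with an interaction was then sorted by whether the WT response was lost, reversed, weakened, strengthened or newly gained in gun1gun5.

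In the gun1gun5_FR group, seedlings mutant in both GUN1 and GUN5 were kept under far-red light and then moved to white light. The gun1gun5_D group held the same mutant given the D pretreatment in place of far-red light; the meaning of D is not spelled out in the labels. WT_FR and WT_D were wild-type seedlings given the same pretreatments. Each sample was RNA of whole seedlings, 300 pooled, grown at 22 degrees C on MS medium under continuous light. The labels list no sucrose for gun1gun5_FR, gun1gun5_D and WT_FR, but 1.5% sucrose for both samples of WT_D. They also list 5 µM norflurazon, which blocks the making of carotenoids, for WT_D replicate 2. Pretreatment and medium therefore cannot be told apart in the WT response, and the interaction contains that difference of medium, while the comparison of gun1gun5_FR with WT_FR is on a single labelled medium. Another 2 arrays, phyA_FR and phyA_D, 1 each, came from a mutant lacking phytochrome A and carry no sucrose in their labels. They played no part in the interaction and are given as descriptions without a test. Nothing in the labels states that replicates came from separate cultures, so a p-value here measures only how far these samples spread, which may be technical.

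Chloroplasts signal their state to the nucleus, and gun (genomes uncoupled) mutants keep nuclear photosynthesis genes active when that signal should lower them. GUN1 is a plastid pentatricopeptide-repeat protein on which several such signals converge, and GUN5 is the subunit of magnesium chelatase that binds porphyrin in chlorophyll synthesis. Far-red light acts on seedlings through phytochrome A, and far-red pretreatment can leave seedlings unable to green when they reach white light, because protochlorophyllide and its reductase fall out of step. The probe sets of GUN1, GUN5 and PHYA are not named in the annotation used here, so the mutated genes were not checked.

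Most of the WT response, in which pretreatment and labelled medium differ together, did not pass as different in gun1gun5. Where the responses did differ, that of gun1gun5 was mostly the lower. The interaction passed at an adjusted p under 0.05 (limma, Benjamini-Hochberg, called below) for 215 probe sets, 0.945% of those tested. The response was lower in gun1gun5 for 162 of them (0.712%) and higher for 53 (0.233%), and 174 interactions were of at least 2-fold. An unadjusted p under 0.05 was reached by 2940. The separate responses were called for 1239 probe sets in gun1gun5 (5.45%), 511 higher and 728 lower after FR, and for 2594 in WT (11.4%), 1142 higher and 1452 lower. Both responses were called for 711 probe sets, which are 57.4% of the gun1gun5 calls and 27.4% of the WT calls. Of these, 679 ran the same way, 255 as rises and 424 as falls, and 32 ran opposite ways. Another 1883 probe sets were called in WT and not in gun1gun5, but for 1741 of them the interaction itself was not called, so a difference between the genotypes was not shown.

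The called interactions were sorted by the calls of the same contrasts, so the classes are descriptions. Of the 215, 142 were lost (called in WT and not in gun1gun5), 106 after a WT rise and 36 after a WT fall. Another 32 were reversed, 28 with a rise in WT and a fall in gun1gun5 and 4 the other way round. Only 4 were weakened, all falls, and 2 were strengthened. In gun1gun5 alone, 35 were called, 27 as falls and 8 as rises. A response that was not called is not shown to be absent, so array values or responses are given for many of the named genes. A single gene found in RefSeq was assigned to 110 of the 215 probe sets.

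**Figure D1:**
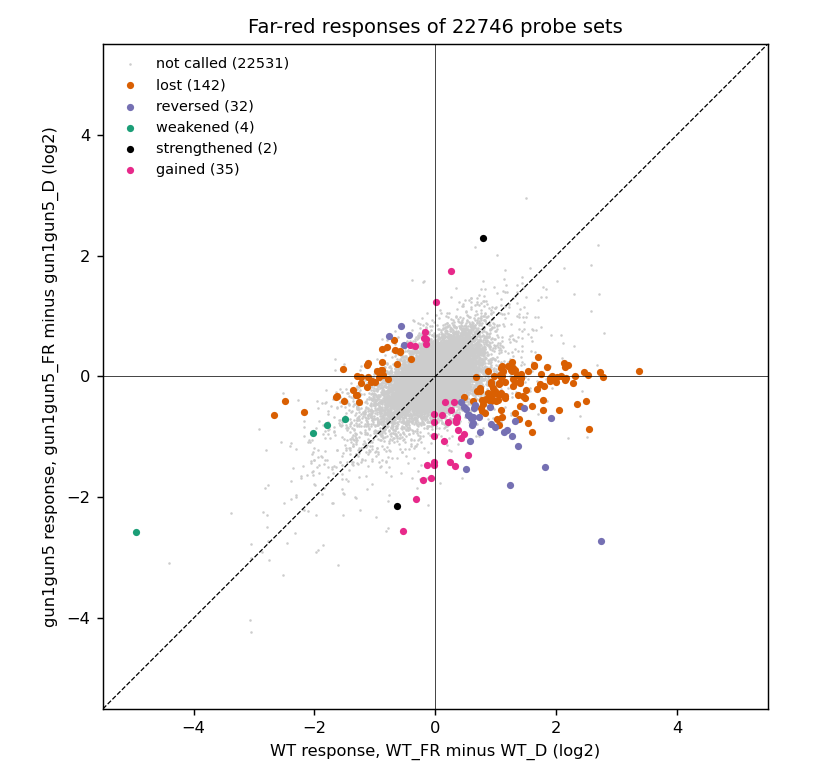
Far-red response of every probe set in gun1gun5 (vertical axis, log2) against that in WT (horizontal axis, log2), with called interactions coloured by class and equal responses on the dashed line. The 106 lost rises form a band to the right at gun1gun5 responses around -0.13 (median), while their WT responses have a median of 1.28.

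The count depended strongly on the few arrays. Without gun1gun5_FR replicate 1 or replicate 2 no probe set was called by limma (0 each), and without each of the others the count was 33 (gun1gun5_D replicate 1), 13 (gun1gun5_D replicate 2), 7 (WT_FR replicate 1), 13 (WT_FR replicate 2), 144 (WT_D replicate 1) and 55 (WT_D replicate 2). In each of these fits all 215 interactions kept their sign. They were chosen for large interactions on these same arrays, so kept signs are no separate evidence. For the 42 called genes named by class or list rule the interaction moved by at most 1.23 times. When only probe sets above the 40th percentile of level were tested, 396 were called, and the counts with an array left out ran from 155 to 391. At the edge of the threshold, the last probe sets inside had an adjusted p of 0.0497 and the first outside 0.0502.

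Rises that were lost in gun1gun5 made up the largest class. Across its 106 probe sets the median response was -0.13 in gun1gun5 (interquartile range -0.37 to 0.01) against 1.28 in WT (1.00 to 1.77). The gun1gun5 response was below 0 for 74 and above 0 for 32, and its size was under 0.5 for 92. Over all 22746 probe sets it was below 0 for 11835, and its size was under 0.5 for 20263. The class requires a gun1gun5 response that was not called, so a small size follows in part from that choice. Both WT_FR arrays read above all 6 other arrays for 105 of the 106, against 2290 of all 22746 probe sets. The class was chosen on these same arrays, so that count is no separate evidence. Median values were 45.1 in gun1gun5_FR and 52.7 in gun1gun5_D, against 200.8 in WT_FR and 66.9 in WT_D. For 24 of the 106, all gun1gun5 arrays read under 16, near the bottom of the scale, so a fall in gun1gun5 could not be measured there. Whole seedlings were measured, so fewer cells of a type and less RNA per cell cannot be told apart.

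The 6 genes named for the largest lost rises were taken from probe sets with a single gene found in RefSeq. Other probe sets ranked among them, the largest with an interaction of -3.29. Of the 6 genes, 3 encode small heat-shock proteins, chaperones that hold unfolded proteins. The first of them, AT2G29500, read 15.2 and 14.5 in gun1gun5_FR and 20.7 and 29.8 in gun1gun5_D, against 1037.8 and 906.5 in WT_FR and 227.9 and 109.1 in WT_D. WT_FR stood far above the rest without overlap, and WT_D was also above every gun1gun5 array. Its interaction was -2.91 ± 0.40 (SE, n = 2 arrays in each of 4 groups; adjusted p = 0.0309, limma), from responses of -0.41 ± 0.28 in gun1gun5 and 2.50 ± 0.28 in WT. AT1G52560 read 0.5 and 1.3 in gun1gun5_FR and 0.9 and 1.0 in gun1gun5_D, against 392.0 and 398.0 in WT_FR and 70.0 and 26.1 in WT_D. It was near 0 on every gun1gun5 array, so after FR it was at least 24.7-fold lower in gun1gun5 than in WT, a bound that sets the gun1gun5 values at 16. Its interaction of -2.78 ± 0.42 (adjusted p = 0.0361) depends on that floor and was no longer called with a pseudocount of 1. AT5G37670 read 15.6 and 22.3 in gun1gun5_FR and 39.3 and 61.9 in gun1gun5_D, against 203.7 and 197.2 in WT_FR and 69.6 and 43.8 in WT_D. Here the D groups overlapped, and only WT_FR stood high. The interaction was -2.51 ± 0.32 (adjusted p = 0.0280). It came from -0.92 ± 0.23 in gun1gun5, not called (adjusted p = 0.0651, limma), and 1.60 ± 0.23 in WT.

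Further lost rises were of other kinds. AT2G23110, a late embryogenesis abundant protein, read 8.0 and 12.6 in gun1gun5_FR and 23.8 and 42.3 in gun1gun5_D, against 220.0 and 191.0 in WT_FR and 19.3 and 24.4 in WT_D. The D groups overlapped, and WT_FR was high alone. It had the largest interaction of the class, -3.43 ± 0.29 (adjusted p = 0.0106), with -0.88 ± 0.21 in gun1gun5 (adjusted p = 0.0573) and 2.55 ± 0.21 in WT. AT1G21550, a calmodulin-like protein of calcium signalling, read 7.7 and 11.2 in gun1gun5_FR and 13.6 and 9.3 in gun1gun5_D, against 148.9 and 81.7 in WT_FR and 10.9 and 9.6 in WT_D. Every group but WT_FR lay under 16, which makes the WT rise at least 7.21-fold. The interaction was -2.38 ± 0.34 (adjusted p = 0.0338), and that call ended with a pseudocount of 64. AT5G25450, a subunit of respiratory complex III, read 81.4 and 94.4 in gun1gun5_FR and 105.4 and 176.1 in gun1gun5_D, against 633.3 and 539.1 in WT_FR and 177.3 and 142.5 in WT_D. Only WT_FR stood apart, and the interaction was -2.34 ± 0.31 (adjusted p = 0.0300).

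Lost rises were also named from the gene lists. WRKY6, a transcription factor of senescence and defence, read 38.6 and 36.5 in gun1gun5_FR and 43.3 and 39.7 in gun1gun5_D, against 166.7 and 194.8 in WT_FR and 67.2 and 51.1 in WT_D. Its interaction was -1.50 ± 0.20 (adjusted p = 0.0301). The mitochondrial gene cox2, for a subunit of cytochrome c oxidase, read 46.8 and 42.9 in gun1gun5_FR and 63.2 and 61.1 in gun1gun5_D, against 283.0 and 265.1 in WT_FR and 113.2 and 67.6 in WT_D. All gun1gun5 arrays lay below all WT arrays, and the interaction was -1.84 ± 0.27 (adjusted p = 0.0352). XTH18, a xyloglucan-remodelling enzyme of the cell wall, read 57.2 and 55.5 in gun1gun5_FR and 66.1 and 48.9 in gun1gun5_D, against 418.1 and 291.9 in WT_FR and 76.7 and 72.1 in WT_D. Its response was -0.01 ± 0.18 in gun1gun5 and 2.02 ± 0.18 in WT, an interaction of -2.03 ± 0.26 (adjusted p = 0.0280). The autophagy protein ATG8H had -1.77 ± 0.17 (adjusted p = 0.0157). Among genes named after their values were seen, UGT76B1, a glucosyltransferase acting on defence metabolites, had an interaction of -2.03 ± 0.21 (adjusted p = 0.0197). Smaller lost rises included the glutathione transferase GSTU22 at -1.25 ± 0.18, the glycosyltransferase UGT73D1 at -1.25 ± 0.18 and the cytochrome P450 CYP71B6 at -0.92 ± 0.14. The calls of UGT73D1 and CYP71B6 ended with a pseudocount of 1 and without a variance trend, in that order.

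Falls that were lost had a different arrangement. Across the 36 probe sets the median response was -0.01 in gun1gun5 against -1.10 in WT. The group farthest from the median of the other groups was WT_D for 26 and WT_FR for 10, and both WT_D arrays read above all 6 others for 28. Over all 22746 probe sets WT_D was farthest for 5174 and WT_FR for 6978, and both WT_D arrays were highest for 1837. WT_D is the group whose labels list sucrose, and the part of the medium in these falls was not tested. The phyA_D array, labelled without sucrose, was below WT_D for 26 of the 36 and above it for 10, with a median difference of -0.11. Over all 22746 probe sets it was below WT_D for 11646. Because most lost falls were called with WT_D high, other arrays lie below WT_D in part by that choice.

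The largest lost fall was AT1G72230, a plastocyanin-like copper protein. It read 0.7 and 0.8 in gun1gun5_FR and 5.1 and 7.2 in gun1gun5_D, against 0.9 and 1.7 in WT_FR and 86.7 and 75.2 in WT_D. Of the 4 groups only WT_D was above 16, so the WT fall was at least 5.06-fold and a fall in gun1gun5 could not be measured. The phyA arrays, at 45.5 after FR and 86.6 in D, were high as well. The interaction was 2.08 ± 0.15 (adjusted p = 0.00858). AT4G37220, of the WCOR413 cold-acclimation membrane family, read 1594.0 and 1610.7 in gun1gun5_FR and 2437.5 and 2567.9 in gun1gun5_D, against 241.2 and 147.7 in WT_FR and 1137.0 and 1474.4 in WT_D. Here WT_FR was the low group, below every other array. The interaction was 2.04 ± 0.30 (adjusted p = 0.0353), from -0.64 ± 0.21 in gun1gun5 and -2.68 ± 0.21 in WT. AT3G05900 read 339.4 and 303.8 in gun1gun5_FR and 255.5 and 339.2 in gun1gun5_D, against 69.0 and 74.7 in WT_FR and 238.3 and 238.9 in WT_D. WT_FR was again low alone, with an interaction of 1.65 ± 0.19 (adjusted p = 0.0223). DRT100, a leucine-rich-repeat protein, read 29.8 and 43.4 in gun1gun5_FR and 53.9 and 72.7 in gun1gun5_D, against 48.8 and 58.0 in WT_FR and 320.2 and 271.2 in WT_D. WT_D stood apart high, and the interaction was 1.57 ± 0.26 (adjusted p = 0.0459), a call that ended with a pseudocount of 1 and without a variance trend.

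**Figure D2:**
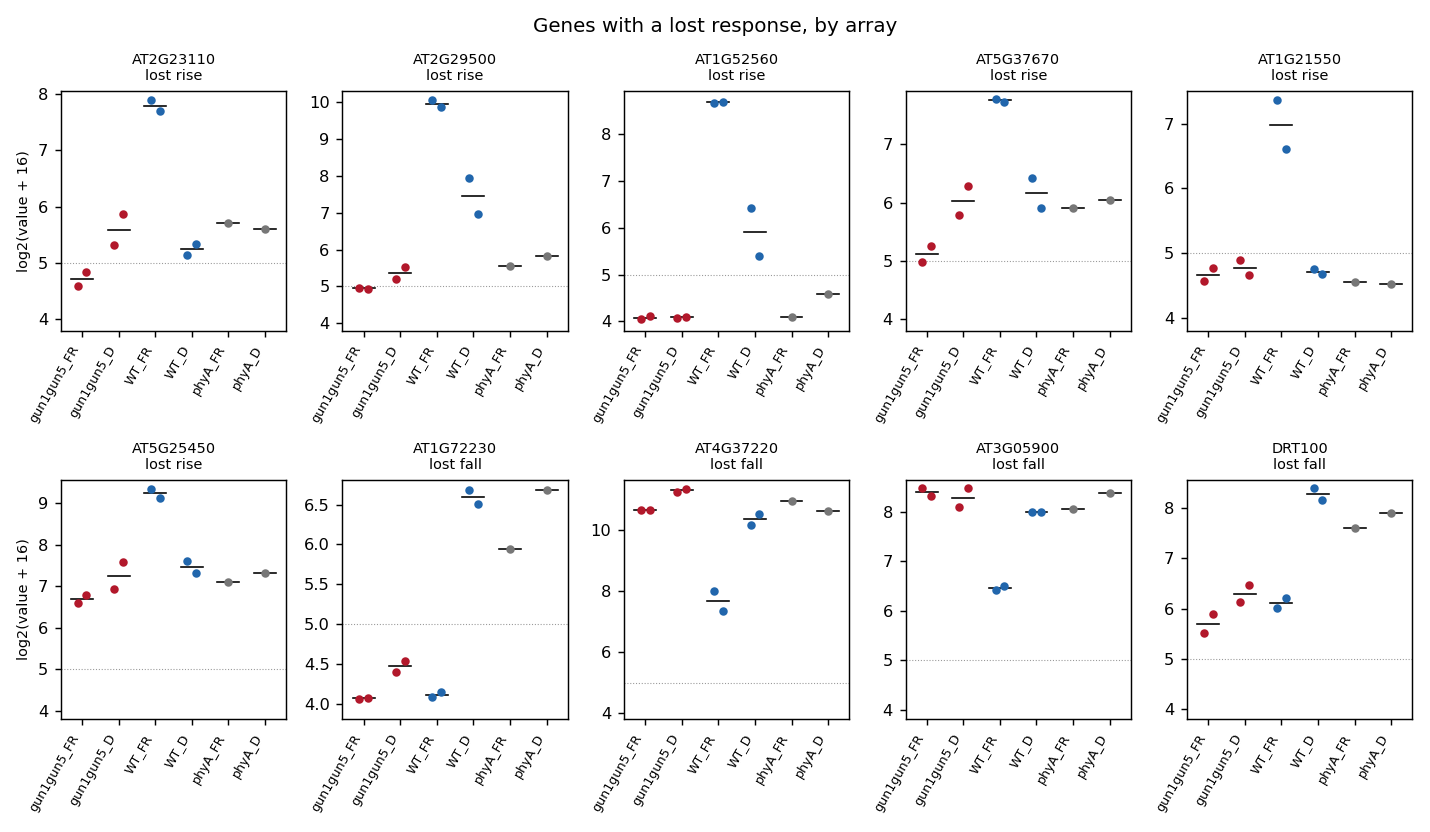
Values of 10 genes with a lost response on each array, as log2(value + 16), with a bar at each group mean and a dotted line where the value is 16. In the 6 lost rises both WT_FR points lie above all others, while in the lost falls either WT_D is high (AT1G72230, DRT100) or WT_FR is low (AT4G37220, AT3G05900).

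Responses that ran opposite ways were nearly all rises in WT against falls in gun1gun5. In these 28 probe sets the median response was -0.75 in gun1gun5 and 0.73 in WT. Both WT_FR arrays were the highest of the 8 for 24 of them, and both gun1gun5_FR arrays were the lowest for 24. Over all 22746 probe sets these counts were 2290 and 1883. The class was chosen on the same arrays. AT5G10695 read 26.4 and 37.1 in gun1gun5_FR and 103.5 and 134.6 in gun1gun5_D, against 799.3 and 756.0 in WT_FR and 287.9 and 153.2 in WT_D. The groups did not overlap and ranked gun1gun5_FR, gun1gun5_D, WT_D and WT_FR. It fell by 1.50 ± 0.27 in gun1gun5 and rose by 1.81 ± 0.27 in WT, an interaction of -3.31 ± 0.38 (adjusted p = 0.0223). MSRB5, which repairs oxidised methionine, read 47.5 and 61.8 in gun1gun5_FR and 116.6 and 166.2 in gun1gun5_D, against 452.0 and 560.8 in WT_FR and 167.4 and 205.1 in WT_D. The D groups lay close without overlap. It fell in gun1gun5 and rose in WT, an interaction of -2.51 ± 0.28 (adjusted p = 0.0218).

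MGL, methionine gamma-lyase, which breaks down methionine, read 283.0 and 274.2 in gun1gun5_FR and 503.9 and 452.9 in gun1gun5_D, against 549.4 and 606.9 in WT_FR and 216.8 and 228.3 in WT_D. The order of the genotypes turned over: gun1gun5 was above WT in D and below it after FR. The interaction was -2.06 ± 0.13 (adjusted p = 0.00858). JRG21, an oxygenase that inactivates jasmonate, read 8.6 and 21.5 in gun1gun5_FR and 38.5 and 42.4 in gun1gun5_D, against 161.1 and 149.5 in WT_FR and 58.4 and 60.9 in WT_D. It was lowest in gun1gun5_FR and highest in WT_FR, with an interaction of -2.07 ± 0.28 (adjusted p = 0.0300). AT1G05340 read 266.5 and 269.1 in gun1gun5_FR and 771.4 and 848.3 in gun1gun5_D, against 1107.8 and 1083.8 in WT_FR and 867.3 and 673.9 in WT_D. Most of its difference was a fall of 1.54 ± 0.13 in gun1gun5, beside a rise of 0.51 ± 0.13 in WT. The largest interaction on the array, -5.48 ± 0.59 (adjusted p = 0.0218), also was a reversal, at a probe set that has no gene in the annotation and was singled out after its values were seen. It read 9.0 and 20.6 in gun1gun5_FR and 148.7 and 228.2 in gun1gun5_D, against 1881.3 and 1782.2 in WT_FR and 423.5 and 155.8 in WT_D.

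The 4 reversals in the other direction had interactions between 1.05 and 1.44. AT4G19530, a receptor of the TIR-NBS-LRR immune class, read 185.4 and 180.2 in gun1gun5_FR and 108.7 and 107.4 in gun1gun5_D, against 86.0 and 70.7 in WT_FR and 108.9 and 112.9 in WT_D. The D groups were nearly level, and the FR groups lay on either side of them. It rose by 0.68 ± 0.11 in gun1gun5 and fell by 0.43 ± 0.11 in WT (interaction 1.11 ± 0.15, adjusted p = 0.0305). AT5G19670, of the exostosin glycosyltransferase family, had an interaction of 1.41 ± 0.18, with gun1gun5_D under 16. AT5G03050 had an interaction of 1.44 ± 0.16, but it read 11.3 and 15.3 in gun1gun5_FR and 2.4 and 2.3 in gun1gun5_D, against 2.0 and 5.3 in WT_FR and 17.1 and 17.5 in WT_D. Both gun1gun5 groups and WT_FR were under 16, so its direction in gun1gun5 rests on values near the bottom of the scale.

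The 4 weakened responses were all falls, and 3 of the probe sets have a single gene. ATPMEPCRD, a pectin methylesterase that modifies wall pectin, read 14.7 and 10.5 in gun1gun5_FR and 127.4 and 186.6 in gun1gun5_D, against 9.7 and 2.3 in WT_FR and 790.9 and 548.7 in WT_D. It was under 16 after FR in both genotypes, so the fall was at least 9.81-fold in gun1gun5 and at least 41.9-fold in WT, and the genotypes differed in D. The interaction of 2.38 ± 0.36 (adjusted p = 0.0361) was not called with a pseudocount of 1. AT5G11420, a wall protein of the DUF642 family, read 144.1 and 140.2 in gun1gun5_FR and 265.2 and 308.5 in gun1gun5_D, against 102.1 and 117.9 in WT_FR and 519.9 and 477.9 in WT_D. It fell by 0.93 ± 0.11 in gun1gun5 and by 2.03 ± 0.11 in WT, and again the larger gap between genotypes was in D. AT4G09890 had an interaction of 1.00 ± 0.15 (adjusted p = 0.0353), lost with a pseudocount of 1. The named strengthened response was AT2G19970, a relative of pathogenesis-related protein 1. It read 120.0 and 103.1 in gun1gun5_FR and 9.5 and 10.4 in gun1gun5_D, against 54.6 and 73.5 in WT_FR and 33.1 and 27.3 in WT_D. It rose in both, by at least 6.97-fold in gun1gun5, and gun1gun5 crossed WT between D and FR. Its interaction was 1.51 ± 0.23 (adjusted p = 0.0361), a call that ended with a pseudocount of 64.

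Responses gained in gun1gun5 were mainly falls. In the 27 gained falls the median response was -0.95 in gun1gun5 and 0.21 in WT. Both gun1gun5_FR arrays were the lowest of the 8 for 22, against 1883 of all 22746 probe sets, in a class chosen on these arrays. COR47, a dehydrin that protects cells from drying and cold, read 461.9 and 459.3 in gun1gun5_FR and 1741.9 and 2149.5 in gun1gun5_D, against 1312.4 and 1216.8 in WT_FR and 1835.9 and 1362.8 in WT_D. The gun1gun5_FR arrays stood far below all others, and the D groups overlapped. It fell by 2.03 ± 0.16 in gun1gun5, beside -0.32 ± 0.16 in WT, and the interaction was -1.71 ± 0.23 (adjusted p = 0.0300). AT4G20320, a CTP synthase of nucleotide synthesis, read 15.0 and 14.2 in gun1gun5_FR and 62.4 and 70.0 in gun1gun5_D, against 68.4 and 50.9 in WT_FR and 47.9 and 46.7 in WT_D. It was at least 4.14-fold lower after FR in gun1gun5, while WT gave 0.25 ± 0.15, and the interaction was -1.67 ± 0.21 (adjusted p = 0.0279). AT1G73480 had -1.41 ± 0.21 (adjusted p = 0.0353). Most of the 8 gained rises were of low signal, with a median value of 13.8 in gun1gun5_FR. The largest interaction among them, 1.48, was at a probe set without a single assigned gene. There gun1gun5_FR read 411.5 and 392.8 and gun1gun5_D 118.1 and 100.4, while WT_FR read 485.0 and 419.5 and WT_D 314.2 and 441.5. Another such probe set read 1307.8 and 1136.7 in gun1gun5_FR. AT3G13760 read 22.5 and 31.4 in gun1gun5_FR and 2.0 and 2.6 in gun1gun5_D, against 1.4 and 1.4 in WT_FR and 1.3 and 1.3 in WT_D. It was above 16 in gun1gun5_FR alone, an interaction of 1.21 ± 0.15 (adjusted p = 0.0253). AT1G27570 (0.90 ± 0.14) and AT1G21340 (0.83 ± 0.12) read at most 16.2 and 14.4 on any of the 8 arrays, and both calls ended with a pseudocount of 1 and without a variance trend.

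**Figure D3:**
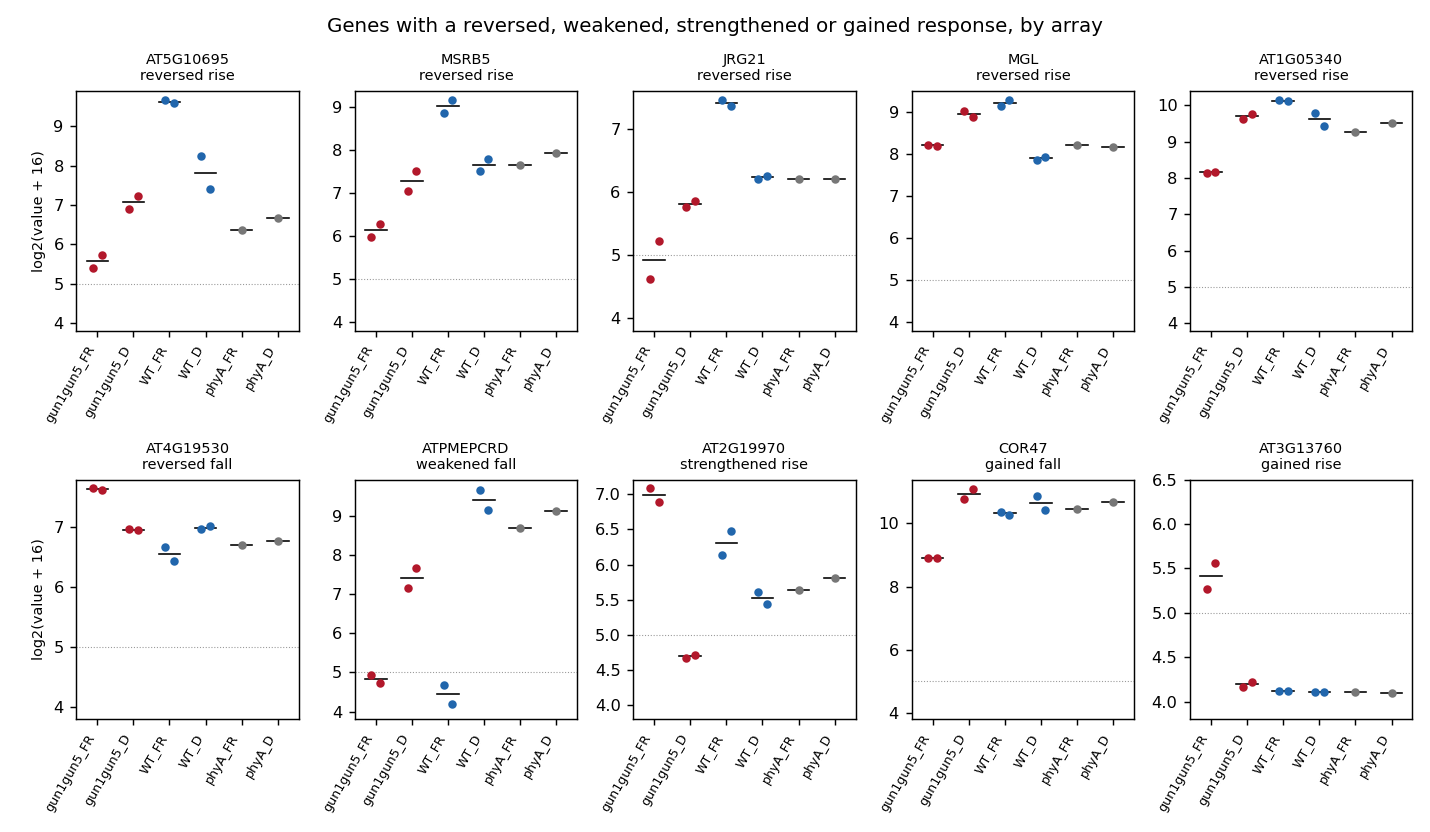
Values of 10 genes with a reversed, weakened, strengthened or gained response on each array, as log2(value + 16), with a bar at each group mean and a dotted line where the value is 16. In the reversed rises gun1gun5_FR lies below gun1gun5_D while WT_FR lies above WT_D, and for COR47 gun1gun5_FR is low alone.

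The interaction is also the genotype difference after FR minus the genotype difference in D, and the classes divided by which of these was large. Over all probe sets the genotype difference was called for 2241 after FR (9.85%) and for 591 in D (2.6%). Of the 106 lost rises, 105 were called lower in gun1gun5 than in WT after FR, where the labelled medium is the same, with a median difference of -1.55. In D, 93 of the 106 were not called, 11 were called lower and 2 higher, with a median of -0.09. Of the 28 reversed rises, 25 were called lower after FR (median -1.25) and 22 were not called in D (median 0.18). The gained falls were alike, with 21 of 27 called lower after FR (median -0.91) and a median of 0.30 in D. Falls in WT had another arrangement. Of the 36 lost falls, 24 were called lower in D (median -0.70), where genotype and labelled medium differ together, and 19 were called higher after FR (median 0.43). Of the 4 weakened falls, 3 were called lower in D (median -0.77) and 1 higher after FR (median 0.36). Of the 4 reversed falls, 3 were called lower in D (median -0.70) and 3 higher after FR (median 0.54). These counts use the arrays of the interaction and so are no separate evidence.

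The phyA arrays were not used to choose any class. For the 106 lost rises the phyA response (phyA_FR minus phyA_D, 1 array each, no test) had a median of 0.02, and 59 were above 0 and 47 below. Over all 22746 probe sets 11842 were above 0 and 10617 below. The phyA_FR array read below WT_FR for 105 of the 106, with a median difference of -1.30, and both phyA arrays read below both WT_FR arrays for 103. These counts were 10789 and 5634 over all 22746 probe sets. AT2G29500, for example, read 31.2 on phyA_FR and 40.2 on phyA_D, and XTH18 87.4 and 128.0. Because these probe sets were called for high WT_FR values, other arrays lie below WT_FR in part by that choice. For the lost falls the phyA response had a median of -0.20, below 0 for 28 of 36, and phyA_FR read above WT_FR for 35. Over all 22746 probe sets the phyA response was below 0 for 10617 and phyA_FR was above WT_FR for 11951. The lost falls were called for WT_FR values below WT_D, so other arrays lie above WT_FR in part by that choice. In the gained falls the phyA response had a median of -0.05 and in the reversed rises of -0.04.

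**Figure D4:**
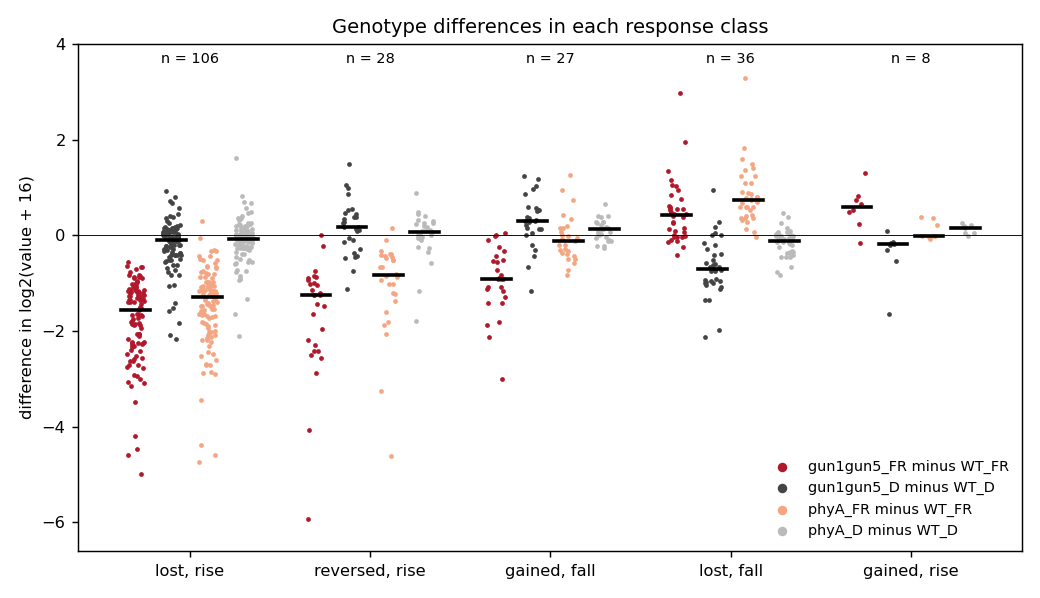
Differences from WT in log2(value + 16) for every probe set of 5 classes, for gun1gun5 after FR and in D and for the single phyA arrays after FR and in D, with a bar at each median. For lost rises the medians are -1.55 and -0.09 in gun1gun5 and -1.30 and -0.07 in phyA, while for lost falls gun1gun5 differs more in D (-0.70) than after FR (0.43).

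Gene families were then described by counts of called interactions, beside 0.945% called and a median interaction of 0.01 over all probe sets. For the counts of rises in WT, the figure over all probe sets was 1142 of 22746. A gene may stand in several lists. The first lists below, for heat, hypoxia, oxidases, autophagy and jasmonate, were drawn up after values were seen and so are no independent evidence of direction. Of 10 small heat-shock proteins, 5 were called lower in gun1gun5 and 1 higher, with a median of -2.05, and 8 rose in WT. Those called lower were AT2G29500, AT1G52560, AT5G37670, ATHSP22.0 (-2.10 ± 0.24) and AT1G54050, and the higher one was AT4G21870 (1.01 ± 0.16), a lost fall. AT1G53540 had an interaction of -3.04 ± 0.55 that missed the threshold (adjusted p = 0.0598). All 7 other heat-response genes rose in WT. Of these, the heat-stress-associated protein HSA32 (-1.35 ± 0.22, adjusted p = 0.0495) and the J-domain co-chaperone AT2G20560 (-1.14 ± 0.17, adjusted p = 0.0353) were called lower, and the call of HSA32 ended without a variance trend and when all 10 arrays were fitted. Fes1A, a partner of HSP70, rose in both genotypes, by 1.36 ± 0.27 in gun1gun5 and 2.30 ± 0.27 in WT, and so did the HSP70 gene AT3G09440, by 0.83 ± 0.16 and 1.14 ± 0.16, with interactions of -0.94 ± 0.38 and -0.32 ± 0.23 that were not called.

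Of 12 hypoxia-response genes, 6 were called lower and none higher (median -1.23), and 8 rose in WT. AT3G03270, a universal stress protein, read 147.6 and 154.7 in gun1gun5_FR and 144.9 and 155.4 in gun1gun5_D, against 899.5 and 935.5 in WT_FR and 253.2 and 165.1 in WT_D. The gun1gun5 arrays were level and WT_FR stood alone, an interaction of -2.07 ± 0.24 (adjusted p = 0.0223). AT1G33055 read 153.7 and 212.1 in gun1gun5_FR and 303.2 and 288.5 in gun1gun5_D, against 332.6 and 346.3 in WT_FR and 133.3 and 166.9 in WT_D. Unlike most lost rises it was higher in gun1gun5 than in WT in D, and its interaction was -1.77 ± 0.22 (adjusted p = 0.0279). Pyruvate decarboxylase PDC2, the first step of ethanol fermentation, had -1.42 ± 0.21 (adjusted p = 0.0362). Of 22 berberine-bridge-like oxidases, 4 were called lower (median -0.15). AT1G30700 (-1.99 ± 0.15, adjusted p = 0.00858) and AT4G20860 (-1.42 ± 0.15, adjusted p = 0.0201) were reversals, and AT1G26420 and AT4G20830 lost rises. Of 4 jasmonate oxidases, 2 were called lower, JRG21 and AT5G05600 (-2.30 ± 0.27, adjusted p = 0.0223), with a median of -1.55. Of 9 ATG8 proteins, which coat the autophagosome, ATG8H alone was called, and the median was -0.31.

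Of 22 lists taken from gene names or loci, 18 had members on the array. The counts are of matched members only and not of whole families. The called glucosyltransferase UGT76B1, for example, was not matched. A single member was called, always lower in gun1gun5, among 12 glutathione transferases (GSTU22, list median 0.07), 19 redox enzymes (MSRB5, -0.09), 43 UDP-glycosyltransferases (UGT73D1, 0.03) and 24 cytochromes P450 (CYP71B6, -0.02). The same held for 7 WRKY and NAC factors (WRKY6, -0.17), 11 late embryogenesis, dehydrin and cold-regulated proteins (COR47, -0.30), 32 expansins, xyloglucan and pectin enzymes (XTH18, 0.07) and 18 probe sets of mitochondrial genes (cox2, -0.36). Called genes of these kinds outside the lists went both ways. They included AT2G23110 (-3.43), AT4G37220 (2.04) and the pectin methylesterase ATPMEPCRD (2.38). In the mitochondrial list cox1 and nad6 also rose in WT, by 1.06 ± 0.15 and 1.23 ± 0.15, with interactions of -0.88 ± 0.21 (adjusted p = 0.127) and -1.22 ± 0.21 (adjusted p = 0.0563).

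No member was called in the remaining lists. Among the 9 calcium-binding proteins listed (median -0.45) the largest interaction was that of CML37, a calmodulin-like protein, at -1.91 ± 0.34 (adjusted p = 0.0575). The calmodulin-like protein AT1G21550, a called lost rise at -2.38, was not matched by this list. The 69 plastid-encoded genes had a median of -0.09 and interactions between -0.84 and 0.50. The median was -0.31 for 4 lipid-transfer and defensin-like proteins, -0.05 for 5 nuclear light-harvesting and photosystem proteins, 0.00 for 4 large chaperones, 0.01 for 7 auxin-responsive genes, 0.20 for 6 pigment-synthesis genes and -0.11 for the only seed-storage probe set, OLEO3. LHCB4.2, a minor antenna protein of photosystem II, read 1165.9 and 1193.6 in gun1gun5_FR and 2652.9 and 2876.0 in gun1gun5_D, against 1004.2 and 785.4 in WT_FR and 2058.4 and 2235.9 in WT_D. Both FR groups were low without overlapping the D groups. It fell by 1.22 ± 0.13 in gun1gun5 and by 1.26 ± 0.13 in WT, an interaction of 0.04 ± 0.19.

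Sugar-regulated genes were listed because of the sucrose in the WT_D labels. The 3 sugar-induced probe sets all had interactions above 0 (median 0.88), none called. DFR, an enzyme of anthocyanin synthesis that sugar raises, read 22.3 and 28.7 in gun1gun5_FR and 34.4 and 46.0 in gun1gun5_D, against 23.8 and 25.0 in WT_FR and 78.0 and 117.5 in WT_D. WT_D was the highest of the 4 groups. The fall in WT was called (-1.47 ± 0.20, adjusted p = 0.00556), and the interaction was 1.04 ± 0.28 (adjusted p = 0.172). The phyA arrays, labelled without sucrose, read 58.3 after FR and 102.3 in D. SAG29, a sugar transporter of senescence, had 0.88 ± 0.23 (adjusted p = 0.164). The 3 sugar-starvation probe sets had a median of -0.19.

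**Figure D5:**
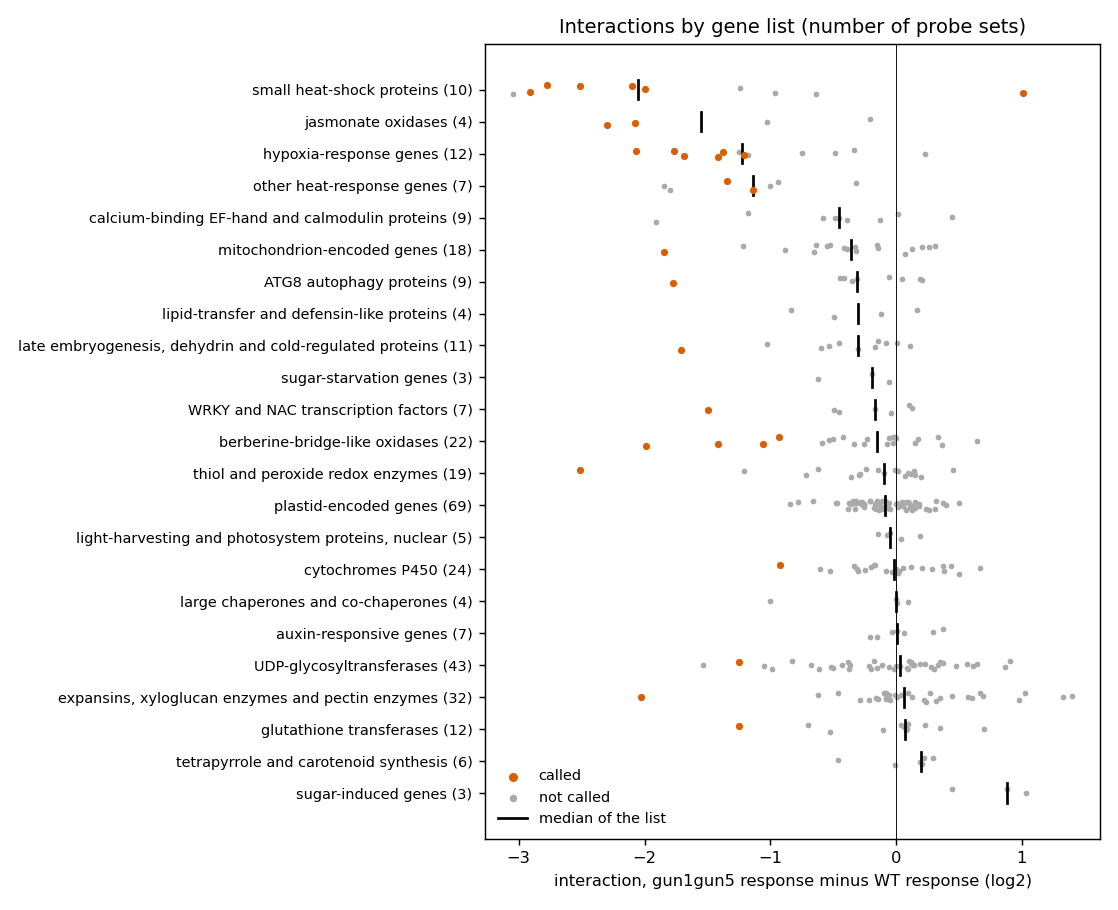
Interaction (log2, gun1gun5 response minus WT response) of each probe set in the lists with at least 3 members, with called probe sets coloured and a bar at the list median. The lists at the top, with medians from -2.05 to -1.14, were drawn up after values were seen, and most others have medians near 0 with at most 1 called member.

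Array medians lay between 35.6 and 40.4 over the 8 arrays, between 29.0% and 32.3% of values were under 16, and replicates correlated with a Spearman rho of 0.979 to 0.983. The control for 25S ribosomal RNA ranged from 314.8 to 3003.8 and varied within groups. A glyceraldehyde-3-phosphate dehydrogenase control for the 3′ end of the transcript read 655.4 to 721.7 on gun1gun5 arrays, against 874.7 to 1123.5 on WT arrays. Its control for the 5′ end read 518.1 to 647.4 against 830.2 to 1214.9. Actin controls for the 3′ end and the middle were also lower on every gun1gun5 array than on any WT array. An actin control for the 5′ end was lower too (566.4 to 627.7 against 686.6 to 837.2). Another for the 5′ end overlapped, as did the ubiquitin controls. These controls move with genotype, and their part in the results was not tested. Of the root, guard-cell, xylem and flower markers looked up, 2 are named in the annotation used here, and neither had a called interaction: the root and ER-body glucosidase PYK10 read 2150.1 to 3135.4 and the guard-cell factor FMA 29.5 to 41.4 over the 8 arrays.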

How the data were processed

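RNA of whole Arabidopsis seedlings was hybridised to Affymetrix ATH1 arrays. The deposited intensities are linear probe-set values, which the authors had scaled so that each array's mean without its lowest and highest 2 percent is about 100 (100.008 to 100.01). The software behind them is not given in the sources used here. The arrays' number limits precision. Groups came from the sample source names, and every value column was mapped to a sample.

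Values were transformed to log2(value + 16). Group means of 4 groups were fitted over 8 arrays with limma 3.58.1 (R 4.3.3), with moderated variances following a trend (4 residual and 3.29 prior degrees of freedom) and no filter or block. Tests were two-sided, and p-values were adjusted by Benjamini-Hochberg over 22746 probe sets. Errors are SE. A fold of "at least" divides the higher group's mean by 16 where the other group is under 16 on both arrays. Other differences are on the log2(value + 16) scale, which understates changes of low values. The fit was tested on simulated data. Alternatives were pseudocounts of 1 and 64, quantile normalization, filters at the 40th and 60th percentiles, no variance trend, all 10 arrays, a replicate block and each array left out.

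Gene names came from the array's annotation table, checked in RefSeq (TAIR10.1): 13513 with 1 gene (13436 found in RefSeq), 503 with several and 8730 not listed. Mitochondrial genes kept the platform symbol. Named genes were those with the largest interactions per class among probe sets with a single gene found in RefSeq. Up to 2 called members per list were also named (where none was called, the member of highest level). Other list members were named after their values were seen. Of 22 lists, 4 matched no probe set, and 6 further lists were drawn up after values were seen. Members and lists were chosen with earlier results of these data known. Promoter and protein sequences were not analysed here.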

Additional observations from a re-analysis of the deposited data

Results flagged for a closer look

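Every result here was picked out because the far-red response differed between gun1gun5 and WT in a test of the difference itself, the interaction in limma. The number of such probe sets was 215. Interactions are given as log2 values, the gun1gun5 response minus the WT response. Among lost rises they were -3.43 for AT2G23110, -2.91 for AT2G29500, -2.78 for AT1G52560, -2.51 for AT5G37670, -2.38 for AT1G21550 and -2.34 for AT5G25450. Lost falls gave 2.08 for AT1G72230, 2.04 for AT4G37220, 1.65 for AT3G05900 and 1.57 for DRT100. Rises reversed to falls gave -3.31 for AT5G10695, -2.51 for MSRB5, -2.07 for JRG21, -2.06 for MGL and -2.05 for AT1G05340. Falls reversed to rises gave 1.44 for AT5G03050, 1.41 for AT5G19670 and 1.11 for AT4G19530. Weakened falls gave 2.38 for ATPMEPCRD, 1.10 for AT5G11420 and 1.00 for AT4G09890, and the strengthened rise of AT2G19970 gave 1.51. Gained rises gave 1.21 for AT3G13760, 0.90 for AT1G27570 and 0.83 for AT1G21340. Gained falls gave -1.71 for COR47, -1.67 for AT4G20320 and -1.41 for AT1G73480. The part of the sucrose listed for WT_D in these differences was not tested.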

How the results depend on the processing

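All 215 called probe sets, the 42 named by rule included, kept the sign of their interaction wherever they were tested. They were called on the same arrays, so this is no separate evidence. Among uncalled genes with interactions near 0, OLEO3 was -0.11 and lay between -0.25 and 0.02 with an array left out. The count of calls was 200 and 235 with pseudocounts of 1 and 64, 221 with quantile normalization, 187 without a variance trend and 207 with all 10 arrays. Filters on level, which test fewer probe sets, gave 396 calls at the 40th percentile (241 lost, 61 reversed, 17 weakened, 12 strengthened and 64 gained) and 323 at the 60th (57 reversed, 12 weakened and 11 strengthened). Elsewhere, strengthened responses numbered 6 with a pseudocount of 1, and gained ones 22 without a variance trend. The causes were not tested. With an array left out, which leaves 1 sample in a group assumed to vary like the others, calls ran from 0 to 144, lost from 0 to 102, reversed from 0 to 25, weakened and strengthened from 0 to 2 and gained from 0 to 17, and calls above the 40th percentile, a setting added after the counts were seen, from 155 to 391. The replicate number as a block gave 152 calls (94 lost, 1 strengthened and 18 gained), 134 of them among the 215, and ended 10 of the 42 named calls, those of AT1G52560, AT4G37220, DRT100, ATPMEPCRD, AT4G09890, AT2G19970, AT1G21340, AT1G73480, HSA32 and AT2G20560. Deviations of same-numbered replicates correlated between 0.05 and 0.14, so the numbers are not shown to pair the arrays. A pseudocount of 1 ended 7 of the named calls, a pseudocount of 64 ended 2, no variance trend 5 and all 10 arrays 1. Values under 16, 29.0% to 32.3% of an array, hold no measurable fall.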
